A study of Mus musculus with 6 samples.

Results

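The genes described here encode the subunits of oxidative phosphorylation, measured in whole kidneys of mouse embryos at E14.5 that were labelled Foxd1 null or wild type. Members were chosen by gene symbol: the nuclear Nduf genes of complex I, the 4 Sdh genes of complex II, the Uqcr genes and Cyc1 of complex III, the Cox4 to Cox8 genes of complex IV and the Atp5 genes of complex V. The choice by symbol gave 82 of the 19938 genes tested, with 33 in complex I, 4 in complex II, 9 in complex III, 19 in complex IV and 17 in complex V. Ndufa4 carries a complex I name but its protein is a subunit of complex IV, so it and its paralog Ndufa4l2 were counted there. Of the 82, 77 are accepted subunits, and the other 5 (Ndufa4l2, Cox7a2l, and the testis isoforms Cox6b2, Cox7b2 and Cox8c) entered through their symbols. Cox7c and Ndufb4 were on the array only in rows that carry several symbols, and were not tested as members.

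Complexes I to IV form the respiratory chain of the inner mitochondrial membrane, which passes electrons from NADH and succinate to oxygen and pumps protons, and complex V uses the proton gradient to make ATP. Most subunits are encoded in the nucleus and imported, while a small set, at the core of every complex but complex II, is encoded by mitochondrial DNA. In the mature kidney the proximal tubule and the thick ascending limb are rich in mitochondria, since they reabsorb filtered solutes with ATP-driven transport.

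Foxd1 encodes a forkhead transcription factor of the renal stroma, and the study compared kidneys lacking it with those of wild type littermates. Each genotype had 3 pools, and each pool held 2 pairs of kidneys taken from embryos of different litters. All embryos came from the same 3 litters of Foxd1+/- intercrosses, so pools of both genotypes shared litters, and the labels do not say which. The embryos' sex was not determined, and the labels do not say what the null allele lacks. RNA (50 ng per pool) was amplified and hybridised to a 1-colour Affymetrix gene array, whose deposited values are log2 levels. On that scale 1 unit is a doubling. A level compares pools within a gene and not genes with each other.

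The array row for Foxd1 itself read 10.05, 9.77 and 9.71 in the null pools, against 9.40, 9.55 and 9.69 in the wild type pools. It was thus not low in the pools labelled null (difference 0.30, SE 0.11, limma adjusted p = 0.246; difference 0.19 without null-labelled pool 1). No source used here says whether the row's probes lie in the deleted part, so the row does not check the labels, and every direction below rests on them. Of 8 genes that define the developing kidney, all were measured, with a median difference of -0.16. Of these, 2, Wt1 and Pax8, fell, against 0.767% of all genes, and 6 of 8 were below 0, against 45.5% of all genes. Above 0 were Ret (0.34, adjusted p = 0.057) and Gata3 (0.09, adjusted p = 0.716). Across all genes, null-labelled pool 1 correlated about as well with the wild type pools (r = 0.991) as with its own group (r = 0.990). The other 5 pools correlated best with their own group. In bulk kidney RNA, fewer cells of a type and less RNA per cell cannot be told apart.

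No single subunit passed the test, but most had lower values in the null-labelled kidneys by a small amount. Across all genes 479 of 19938 (2.4%) had an adjusted p under 0.05 in limma with Benjamini-Hochberg adjustment, 153 of them lower (0.767%) and 326 higher (1.64%) in the null-labelled pools. Of the 82 members, 0 passed. With 1 row per gene, Cox5a, a subunit of cytochrome c oxidase, came nearest, with an adjusted p of 0.0519. With a variance that follows the level and resists outlying genes, 3 members passed, Cox5a, Cox7b and Ndufs6, beside 3.38% of all genes. Cox5a alone passed with a filter on low rows (5.54% of all genes), with array weights (2.85%) and without null-labelled pool 1 (3.73%). In the other settings 0 members passed, beside 0.451% to 2.7% of all genes. At an unadjusted p under 0.05, 26 of the 82 members (31.7%) were lower in the null-labelled pools, against 5.42% of all genes, and 1 member (1.22%), the muscle isoform Cox8b, was higher, against 8.68% of all genes. These counts without adjustment are a description of the members and call no gene.

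The difference, null minus wild type, was below 0 for 73 of the 82 members (89.0%), against 45.5% of all genes. Among genes at or above the median level of 7.15, the shares were 71 of 76 members (93.4%) and 48.7% of genes. This reference was not matched in level, with a median level of 8.41, against 10.52 for all members. All 3 null-labelled pools lay below all 3 wild type pools for 46 members (56.1%), against 8.04% of all genes, and above them for 1 member (1.22%), against 11.5%. At or above the median level, the shares lower without overlap were 59.2% of members and 10.5% of genes. The median difference of the members was -0.12, or -8.24%, beside 0.01 over all genes. The shift was small for most members: 60 of the 82 differences lay within 0.2 of 0. The 95% interval was wholly below 0 for 26 members and wholly above 0 for 1. Only Ndufs5 and Uqcr10 had intervals that reached a 1.5-fold fall, and only Ndufa4l2 had one that reached a rise of that size.

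**Figure D1:**
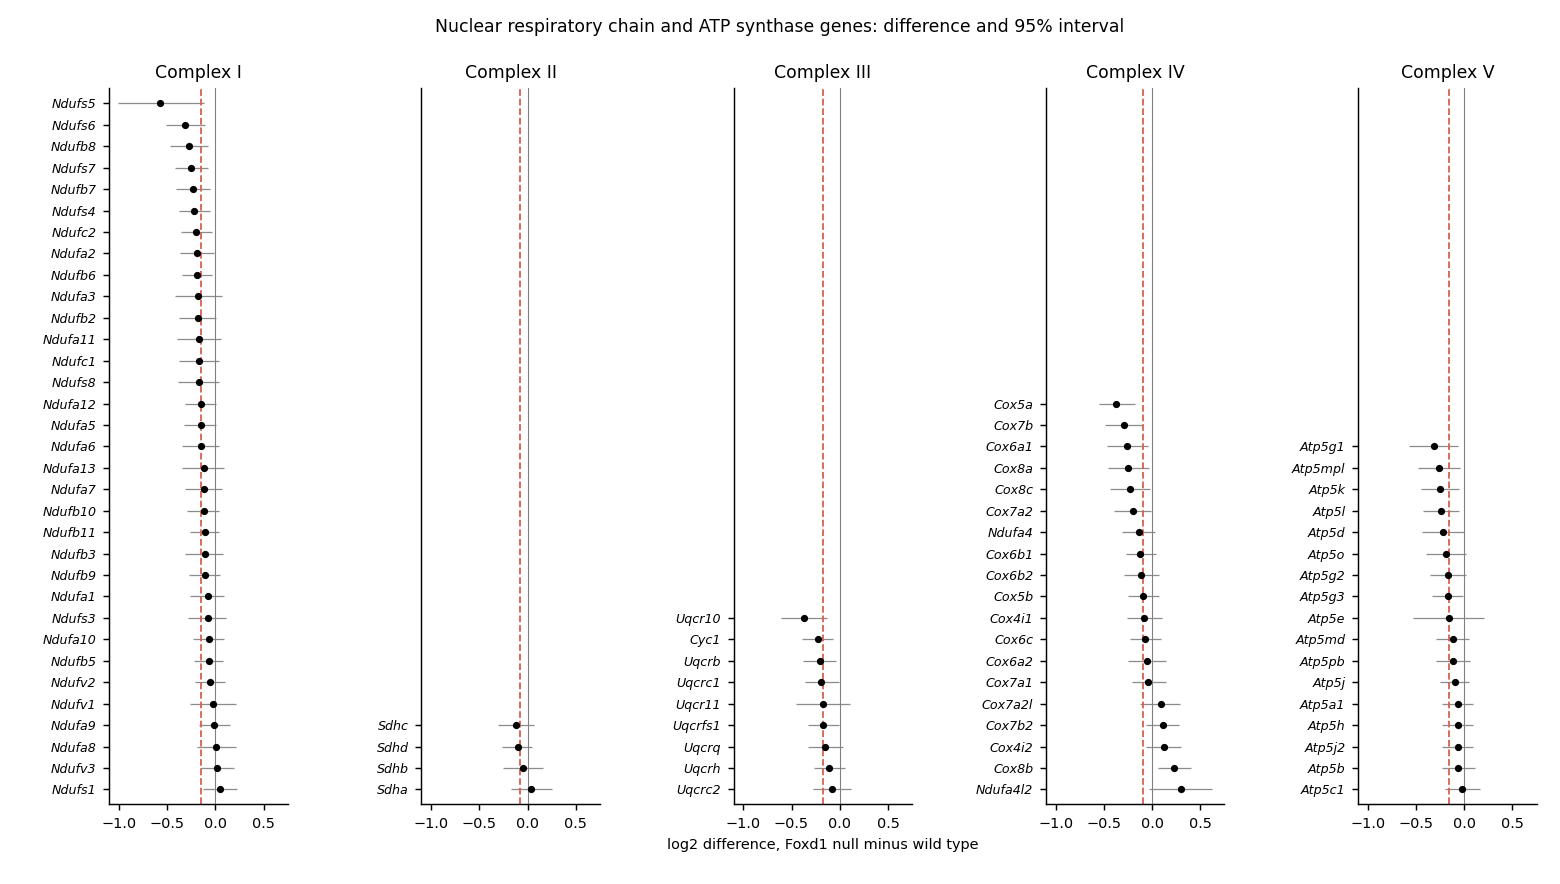
Each point is 1 of the 82 members, placed by its log2 difference, null minus wild type (horizontal axis), with its 95% interval, in a panel for each complex. The dashed line is the median of the complex. All of the 9 points of complex III and the 17 of complex V lie left of 0, while Cox8b and Ndufa4l2 of complex IV lie to the right at 0.23 and 0.30.

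The members' values were not even within a genotype. The median member's deviation from its own mean over the 6 pools was -0.05, -0.08 and -0.05 in null-labelled pools 1, 2 and 3, against 0.04, 0.03 and 0.12 in wild type pools 1, 2 and 3. The median over all genes stayed between -0.02 and 0.04 in each pool. Wild type pool 3 held the highest of the 6 values for 53 members (64.6%), against 17.3% of all genes. Null-labelled pool 2 held the lowest for 36 members (43.9%), against 22.5% of all genes, and null-labelled pool 3 for 27 (32.9%), against 11.8%. Without wild type pool 3 the members lower at an unadjusted p under 0.05 numbered 9 of 82 (11.0%), beside 4.32% of all genes, in place of 26. Leaving out null-labelled pool 1, 2 or 3 gave 24, 19 and 18 members, beside 6.16%, 4.39% and 5.26% of all genes. Leaving out wild type pool 1 or 2 gave 21 and 24, beside 3.75% and 4.59%.

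**Figure D2:**
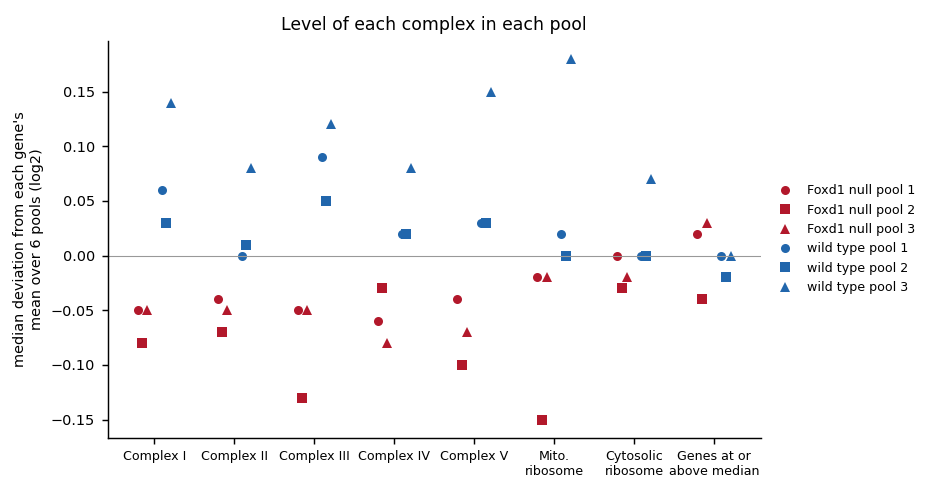
The vertical axis is the median deviation of a list's genes from their own mean over the 6 pools, in log2 units, for complexes I to V, the mitochondrial and cytosolic ribosomal proteins and the genes at or above the median level. Each symbol is 1 pool, null-labelled pools left of wild type pools. All 5 complexes lie below 0 in the 3 null-labelled pools and are highest in wild type pool 3, at 0.08 to 0.15.

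Complex I, the NADH dehydrogenase that feeds electrons into the chain, had a median difference of -0.15, with 30 of its 33 members below 0 and 20 lower without overlap between the genotypes, against 45.5% and 8.04% of all genes. The median was -0.093 without wild type pool 3. Its median deviations were -0.05, -0.08 and -0.05 in null-labelled pools 1, 2 and 3, against 0.06, 0.03 and 0.14 in the wild type pools. The 6 core subunits, which make up the part of the enzyme that carries electrons from NADH, had a median difference of -0.07, and the 27 accessory subunits had -0.15. The difference between these classes was not tested. Among the core subunits, the iron-sulfur protein Ndufs7 read 8.25, 8.13 and 8.19 in null-labelled pools, against 8.49, 8.34 and 8.48 in wild type pools (difference -0.25, SE 0.08, adjusted p = 0.155). The largest core subunit, Ndufs1, differed by 0.05 (SE 0.08, adjusted p = 0.856), and the NADH-binding Ndufv1 by -0.02 (SE 0.11, adjusted p = 0.955).

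The lowest differences in complex I belonged to the accessory subunits Ndufs5 and Ndufs6. Ndufs5, a protein of the membrane arm, read 9.54, 8.69 and 9.31 in null-labelled pools 1, 2 and 3, against 9.60, 9.62 and 10.03 in wild type pools. The genotypes did not overlap, but null-labelled pool 1 stood just below the nearest wild type pool, and null-labelled pool 2 lay far under the others. The difference was -0.57 (SE 0.20, 95% interval -1.01 to -0.12, adjusted p = 0.223), with the widest error of any member. It was -0.32 without null-labelled pool 2 and -0.75 without null-labelled pool 1. A further array row, shared by Ndufs5 and the pseudogene Ndufs5-ps, read 9.61, 9.61 and 9.57 in null-labelled pools and 9.85, 9.74 and 9.88 in wild type pools, a difference of -0.22 (SE 0.07).

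Ndufs6, a zinc-binding subunit needed for assembly of the NADH-oxidising module, read 10.74, 10.80 and 10.53 in null-labelled pools, against 10.97, 10.94 and 11.07 in wild type pools. The 3 null-labelled values all lay below the wild type ones, by -0.31 on average (SE 0.09, 95% interval -0.51 to -0.11, adjusted p = 0.129). Ndufb8 of the distal membrane arm differed by -0.27 (SE 0.09, adjusted p = 0.179) and Ndufs4, a subunit whose loss in mice and humans causes Leigh-like encephalopathy, by -0.22 (SE 0.07, adjusted p = 0.193). At the other end, the accessory subunit Ndufv3 differed by 0.02 (SE 0.08, adjusted p = 0.959) and Ndufa8 by 0.01 (SE 0.09, adjusted p = 0.973). Ndufa10, which resembles a nucleoside kinase, averaged 11.60 ± 0.05 in null-labelled pools and 11.66 ± 0.05 in wild type pools (SD, n = 3 each; adjusted p = 0.759). The accessory subunits Ndufb7, Ndufc2, Ndufa2 and Ndufb6 had differences of -0.23, -0.20, -0.19 and -0.19, each without overlap, with adjusted p from 0.226 to 0.307. The members of complex I not named above lay between -0.18 (Ndufa3 and Ndufb2) and -0.01 (Ndufa9), with adjusted p of 0.378 or more.

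The promoters of Ndufs5 and Ndufs6 are printed because these members had the lowest differences in complex I and both hold a motif that recurs among promoters of nuclear respiratory genes. The sequences are from RefSeq (GRCm38.p6), 250 bases before to 50 after the annotated start, on the gene's strand, and lie at chr4:123718137-123718436 (minus strand) for Ndufs5 and chr13:73328433-73328732 (minus strand) for Ndufs6. Capitals mark the 10-base NRF1-type motif, whose middle has 1 free base, read on either strand, and in Ndufs6 also a YY1-type motif, AAGATGGC.
Ndufs5: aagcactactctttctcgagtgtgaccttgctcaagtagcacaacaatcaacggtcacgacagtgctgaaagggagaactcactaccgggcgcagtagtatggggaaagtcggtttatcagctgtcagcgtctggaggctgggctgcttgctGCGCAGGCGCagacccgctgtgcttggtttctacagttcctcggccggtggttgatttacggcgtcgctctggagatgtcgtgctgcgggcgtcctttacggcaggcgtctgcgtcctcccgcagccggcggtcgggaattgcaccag
Ndufs6: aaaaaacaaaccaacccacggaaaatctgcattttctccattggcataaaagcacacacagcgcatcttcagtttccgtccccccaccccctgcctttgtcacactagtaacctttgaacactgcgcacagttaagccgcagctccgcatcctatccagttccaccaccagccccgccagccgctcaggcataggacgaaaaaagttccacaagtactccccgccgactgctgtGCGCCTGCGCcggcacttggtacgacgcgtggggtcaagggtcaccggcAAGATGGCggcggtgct
The NRF1-type match spans bases 153 to 162 of the Ndufs5 window and bases 235 to 244 of the Ndufs6 window, counted from the 5′ end. The YY1-type match spans bases 284 to 291 of the Ndufs6 window, downstream of the annotated start.

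Of the 82 members, 66 had a promoter window in the RefSeq table. The 16 without one were Atp5a1, Atp5mpl, Cox4i1, Cox4i2, Cox6a2, Cox6c, Cox8c, Cyc1, Ndufa2, Ndufa4l2, Ndufb9, Ndufs1, Sdhc, Uqcrb, Uqcrc2 and Uqcrq. NRF1, GABP and YY1 are transcription factors known for binding promoters of nuclear genes for mitochondrial proteins. The NRF1-type motif marked in those capitals, searched on both strands like the others, stood in 16 of the 66 windows (24.2%), against 5.19% of all 27025 symbols with a window and 12.2% of the 8017 tested genes at or above the median level. The GABP-type letters CCGGAAG stood in 17 (25.8%), against 9.93% and 20.7%. The YY1-type letters AAGATGGC stood in 10 (15.2%), against 3.19% and 5.66%. In all, 37 members (56.1%) held at least 1 of the 3 motifs, against 16.4% of all symbols, and matches of different motifs overlapped in 0 members. The share among tested genes at or above the median level, higher than that of all symbols for each single motif, was not computed for this combined count. The median difference of members with and without a motif was -0.17 and -0.12 for NRF1-type, -0.16 and -0.14 for GABP-type and -0.17 and -0.13 for YY1-type letters. These medians lie close together, and a match describes letters in a window, not binding.

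Complex II, the succinate dehydrogenase that also serves the citric acid cycle, had a median difference of -0.08 over 4 genes, and of -0.037 without wild type pool 3. The flavoprotein Sdha read 10.48, 10.41 and 10.73 in null-labelled pools, against 10.44, 10.52 and 10.55 in wild type pools, with full overlap (difference 0.04, SE 0.09, adjusted p = 0.902). The iron-sulfur protein Sdhb differed by -0.05 (SE 0.09, adjusted p = 0.879). The membrane anchors Sdhc and Sdhd differed by -0.12 (SE 0.08, adjusted p = 0.589) and -0.10 (SE 0.07, adjusted p = 0.572). Sdhd was the 1 gene of complex II without overlap between the genotypes, at 8.26, 8.27 and 8.21 in null-labelled pools, against 8.33, 8.32 and 8.40 in wild type pools.

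Complex III, the cytochrome bc1 complex that hands electrons from ubiquinol to cytochrome c, had a median difference of -0.17. All 9 members were below 0, and 7 were lower without overlap, against 45.5% and 8.04% of all genes. The median was -0.14 without wild type pool 3. Uqcr10, a small membrane subunit, read 9.35, 9.23 and 8.96 in null-labelled pools, against 9.50, 9.47 and 9.68 in wild type pools. Each null-labelled pool lay below each wild type pool, with pool 3 of either genotype at the extreme (difference -0.37, SE 0.11, 95% interval -0.61 to -0.13, adjusted p = 0.131).

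Cyc1, the cytochrome c1 haem protein, read 10.23, 10.20 and 10.32 in null-labelled pools, against 10.52, 10.46 and 10.48 in wild type pools (difference -0.23, SE 0.07, adjusted p = 0.152). The 3 values of each genotype lay close together, and the groups stood apart. The Rieske iron-sulfur protein Uqcrfs1 differed by -0.17 (SE 0.07, adjusted p = 0.305), the core protein Uqcrc1 by -0.19 (SE 0.08, adjusted p = 0.303) and the core protein Uqcrc2 by -0.08 (SE 0.09, adjusted p = 0.782). The hinge protein Uqcrh, at 11.80, 11.76 and 11.77 in null-labelled pools and 11.83, 11.88 and 11.95 in wild type pools, differed by -0.11 (SE 0.07, adjusted p = 0.548), without overlap. The ubiquinone-binding protein Uqcrb and the small subunit Uqcrq differed by -0.21 (SE 0.08, adjusted p = 0.245) and -0.15 (SE 0.08, adjusted p = 0.455), also without overlap. Uqcr11 overlapped, at -0.17 (SE 0.12, adjusted p = 0.613), so that the 2 members of complex III with overlap were Uqcr11 and Uqcrc2.

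Complex IV, cytochrome c oxidase, reduces oxygen to water, and several of its nuclear subunits exist as isoforms used in different tissues. The 10 general subunits had a median difference of -0.17, with 10 of 10 below 0 and 8 lower without overlap, against 45.5% and 8.04% of all genes. The 19 members together had a median of -0.09, with 14 (73.7%) below 0. Of the 19, 9 were lower and 1 was higher without overlap, against 8.04% and 11.5% of all genes. The median was -0.04 for the 3 heart and muscle isoforms and -0.11 for the 3 testis isoforms. Cox5a, a general subunit on the matrix side of the enzyme, read 10.51, 10.41 and 10.25 in null-labelled pools, against 10.74, 10.75 and 10.79 in wild type pools. The wild type pools lay close together, and every null-labelled pool stood below them. The means were 10.39 ± 0.13 in null-labelled pools and 10.76 ± 0.03 in wild type pools (SD, n = 3 each), a difference of -0.37 (SE 0.08, 95% interval -0.55 to -0.18), or 0.775 times the wild type level. The limma adjusted p was 0.0519, above the threshold, and it ran from 0.0133 to 0.177 over the other settings tried.

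The Cox5a promoter is shown because this member came closest to the threshold while its window holds none of the 3 motifs, so it has no capitals. It is RefSeq sequence of GRCm38.p6, chr9:57520982-57521281 (plus strand).
Cox5a: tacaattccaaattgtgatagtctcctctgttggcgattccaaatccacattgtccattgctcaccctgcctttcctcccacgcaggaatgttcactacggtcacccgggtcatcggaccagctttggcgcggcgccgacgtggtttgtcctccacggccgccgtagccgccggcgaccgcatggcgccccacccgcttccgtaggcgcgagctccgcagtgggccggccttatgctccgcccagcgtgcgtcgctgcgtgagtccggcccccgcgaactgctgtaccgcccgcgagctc

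Cox7b, a small membrane subunit, read 11.54, 11.52 and 11.49 in null-labelled pools, against 11.69, 11.97 and 11.78 in wild type pools (difference -0.29, SE 0.09, adjusted p = 0.136). A further row of the same gene read 10.44, 10.44 and 10.46 in null-labelled pools, against 10.84, 11.01 and 10.80 in wild type pools, a difference of -0.44 (SE 0.08). In limma over all rows, that further row had an unadjusted p of 0.000878 and an adjusted p of 0.098. It was not used in the test with 1 row per gene, since its mean level was lower. Both rows kept the genotypes apart. Cox6c differed by -0.07 (SE 0.07, adjusted p = 0.735) and Cox6b1, which bridges the monomers of the dimeric enzyme, by -0.12 (SE 0.07, adjusted p = 0.507). Cox5b, the zinc-binding subunit, differed by -0.09 (SE 0.07, adjusted p = 0.654), without overlap.

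The ubiquitous or liver-type forms Cox6a1, Cox7a2 and Cox8a differed by -0.26 (SE 0.09, adjusted p = 0.247), -0.20 (SE 0.08, adjusted p = 0.308) and -0.25 (SE 0.09, adjusted p = 0.269), each without overlap. Without wild type pool 3 the differences of Cox7a2 and Cox8a were -0.125 and -0.15. Their heart and muscle counterparts Cox6a2 and Cox7a1 differed by -0.05 (SE 0.09, adjusted p = 0.865) and -0.04 (SE 0.08, adjusted p = 0.896), with overlap. Cox8b, the muscle counterpart of Cox8a, read 6.40, 6.43 and 6.49 in null-labelled pools, against 6.12, 6.19 and 6.31 in wild type pools. All 3 null-labelled values lay above the wild type ones (difference 0.23, SE 0.08, 95% interval 0.06 to 0.40, adjusted p = 0.198). The testis isoforms Cox8c, Cox6b2 and Cox7b2 differed by -0.23 (SE 0.09, adjusted p = 0.29), -0.11 (SE 0.08, adjusted p = 0.625) and 0.11 (SE 0.08, adjusted p = 0.599). Differences between the isoforms of a pair were not tested.

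Cox8b is low on this array, among the 6 members under the median level of all genes, together with Cox8c, Cox7b2, Cox4i2, Cox7a1 and Ndufa4l2. Of 12 skeletal muscle markers 1, Tnnt3, rose, against 1.64% of all genes, and 11 did not pass. Their median difference was 0.96, and their median deviations were 0.92, 0.66 and -0.07 in null-labelled pools 1, 2 and 3, against -0.95, -0.21 and 0.03 in wild type pools. The part of muscle RNA in the Cox8b values was not tested. Cox4i1, the general form of the subunit, differed by -0.08 (SE 0.08, adjusted p = 0.735), and Cox4i2, the form known from lung and from mural cells of vessels, by 0.12 (SE 0.08, adjusted p = 0.589).

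Ndufa4 differed by -0.14 (SE 0.07, adjusted p = 0.461), without overlap. Its paralog Ndufa4l2, a hypoxia-induced gene also known as a pericyte marker, read 6.78, 7.40 and 7.04 in null-labelled pools, against 6.75, 6.64 and 6.95 in wild type pools. The ranges overlapped, and null-labelled pool 2 stood highest (difference 0.30, SE 0.15, 95% interval -0.03 to 0.62, adjusted p = 0.414). The difference was 0.13 without that pool. Of 11 pericyte and mural cell markers 1, Rgs5, rose, against 1.64% of all genes. Of the 11 markers 0 were below 0, against 45.5% of all genes, and their median difference was 0.28. Their median deviations were -0.13, 0.18 and 0.28 in null-labelled pools 1, 2 and 3, against -0.12, -0.11 and -0.22 in wild type pools, and their part in the Ndufa4l2 and Cox4i2 values was not tested. Cox7a2l, which helps join complexes III and IV into supercomplexes, differed by 0.09 (SE 0.09, adjusted p = 0.754).

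**Figure D3:**
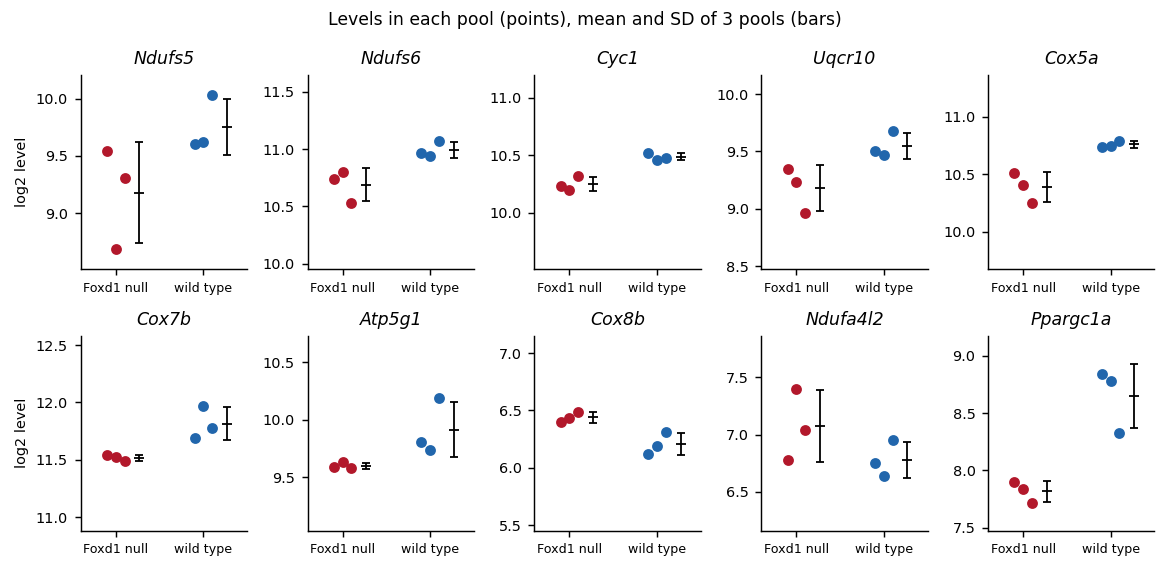
Each panel gives the log2 level of 1 gene, with a point for each pool, null-labelled pools left of wild type pools, and bars for the mean and SD of 3 pools. Ndufs5, Ndufs6, Cyc1, Uqcr10, Cox5a, Cox7b, Atp5g1 and the coactivator gene Ppargc1a have every null-labelled pool below every wild type pool, Cox8b has them above, and Ndufa4l2 overlaps.

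Complex V, the ATP synthase, had a median difference of -0.16, and all 17 members were below 0, 9 of them without overlap, against 45.5% and 8.04% of all genes. The median was -0.093 without wild type pool 3. By place in the enzyme, the median was -0.07 for the 5 subunits of the catalytic head and central stalk, -0.11 for the 4 of the peripheral stalk, -0.17 for the 3 genes of the c-ring and -0.24 for the 5 other membrane subunits. Differences between these classes were not tested. The catalytic beta subunit Atp5b averaged 12.05 ± 0.09 in null-labelled pools and 12.11 ± 0.03 in wild type pools (SD, n = 3 each; adjusted p = 0.8), and the rotating gamma subunit Atp5c1 differed by -0.02 (SE 0.08, adjusted p = 0.947).

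The genes Atp5g1, Atp5g2 and Atp5g3 encode the same mature c-ring protein behind different import sequences. Atp5g1 read 9.59, 9.63 and 9.58 in null-labelled pools, against 9.81, 9.74 and 10.19 in wild type pools. The null-labelled pools lay close together below all wild type pools, and wild type pool 3 stood apart at the top (difference -0.31, SE 0.11, 95% interval -0.57 to -0.06, adjusted p = 0.234). Without that pool the difference was -0.18 for Atp5g1 and -0.093 for Atp5g2. With all pools, Atp5g2 and Atp5g3 differed by -0.17 each (SE 0.08 and 0.07, adjusted p = 0.41 and 0.323), also without overlap.

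Of the other membrane subunits, Atp5mpl read 11.70, 11.65 and 11.37 in null-labelled pools, against 11.78, 11.81 and 11.92 in wild type pools (difference -0.26, SE 0.10, adjusted p = 0.258), and differed by -0.16 without null-labelled pool 3. Atp5k and Atp5l, the e and g subunits that shape the dimers of the enzyme, differed by -0.25 (SE 0.09, adjusted p = 0.231) and -0.24 (SE 0.08, adjusted p = 0.23), without overlap. Atp5md averaged 12.30 ± 0.09 in null-labelled pools and 12.41 ± 0.05 in wild type pools (SD, n = 3 each; adjusted p = 0.561). Atp5e, the epsilon subunit, had the widest spread in the complex, from 10.59 to 11.01 in null-labelled pools and from 10.70 to 11.28 in wild type pools (difference -0.16, SE 0.16, adjusted p = 0.734). The delta subunit Atp5d of the central stalk read 9.57, 9.40 and 9.55 in null-labelled pools, against 9.58, 9.69 and 9.91 in wild type pools with the nearest values almost touching (difference -0.22, SE 0.10, adjusted p = 0.343). In the peripheral stalk, Atp5o (OSCP), Atp5pb (subunit b), Atp5j (F6) and Atp5h (subunit d) had differences of -0.19, -0.12, -0.10 and -0.07, with adjusted p from 0.401 to 0.722. The catalytic alpha subunit Atp5a1 and the membrane subunit Atp5j2 had -0.07 each.

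**Figure D4:**
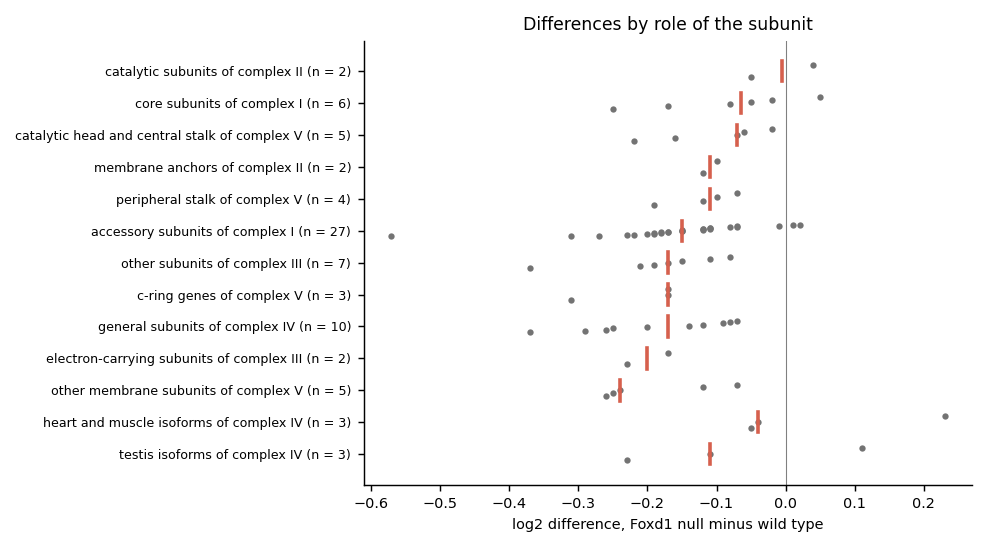
The horizontal axis is the log2 difference, null minus wild type. Points are genes, and the upright bar is the median of each of the 13 classes of subunits with more than 1 gene. Medians of the general subunits of complex IV, the c-ring and the other membrane subunits of complex V lie at -0.17 to -0.24, and those of the core of complex I, the catalytic part of complex II and the catalytic head of complex V at -0.07 to -0.00. In complex III the order is the other way, with -0.20 for the 2 electron-carrying subunits and -0.17 for the 7 other subunits. Differences between classes were not tested.

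Where the array held more than 1 row for a member, the rows pointed the same way. The 16 such members had 40 rows, the rows of a gene shared their sign in 16 of 16, and the largest gap between rows of a gene was 0.16, for Ndufc1. None of the 24 rows not used passed the test over all rows. Cox7c, on 3 rows with several symbols, had differences of -0.06 to -0.07, and Ndufb4, on 2 such rows, had -0.23 (SE 0.13) and -0.22 (SE 0.11). Across the 82 members the level and the difference were nearly unrelated in rank (Spearman's rho 0.01, Pearson's r -0.23), which describes genes on the same 6 arrays and not replicates.

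Of the other genes of the pathway, taken from lists of assembly, carrier, cycle and biogenesis genes, 1 passed the test, against 2.4% of all genes. Only 2 genes of mitochondrial DNA could be measured: COX2, a catalytic subunit of complex IV, differed by -0.01 (adjusted p = 0.969) and ND3 of complex I by -0.10 (adjusted p = 0.685). The assembly factors had median differences of -0.10 for complex I (11 of 16 below 0), -0.04 for complex II (3 of 4), -0.01 for complex III (4 of 6), -0.09 for complex IV (18 of 20) and -0.05 for complex V (3 of 3), and 0 passed the test. Of 12 measured subunits and partners that the symbols leave out, 9 were below 0 and 0 passed. The ADP/ATP carrier Slc25a5, which exports the ATP, had the lowest of these differences, -0.27 (adjusted p = 0.162).

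The list for pyruvate dehydrogenase and the citric acid cycle, which supply the NADH and succinate, had a median difference of -0.08. The list also holds Pdk1, Pdk2, Pdk3 and Pdk4, kinases of pyruvate dehydrogenase, so its median is not that of the supplying enzymes alone. Of the 21 genes on the list, 16 (76.2%) were below 0, against 45.5% of all genes, and 0 passed. Pdk2, a kinase that inhibits pyruvate dehydrogenase, had -0.33 (adjusted p = 0.0732), and the malate dehydrogenases Mdh1 and Mdh2 had -0.20 and -0.22. The 77 mitochondrial ribosomal protein genes, which translate the subunits encoded in mitochondrial DNA, had a median of -0.14, with 71 below 0 and 24 lower without overlap, against 45.5% and 8.04% of all genes, and 0 passing. Their median deviations were -0.02, -0.15 and -0.02 in null-labelled pools 1, 2 and 3, against 0.02, -0.00 and 0.18 in wild type pools, again highest in wild type pool 3. The 60 cytosolic ribosomal protein genes had a median of -0.04, with 45 below 0 and 0 passing.

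Of 16 genes of mitochondrial transcription and biogenesis, 1 fell, against 0.767% of all genes. Below 0 were 9 (56.2%), against 45.5% of all genes, with a median of -0.03. The gene that fell was Ppargc1a, a coactivator that raises transcription of respiratory genes together with NRF1 and other factors. It read 7.90, 7.84 and 7.72 in null-labelled pools, against 8.84, 8.78 and 8.33 in wild type pools. The genotypes were well apart, and wild type pool 3, the highest for most subunits, was the lowest wild type pool here. The means were 7.82 ± 0.09 in null-labelled pools and 8.65 ± 0.28 in wild type pools (SD, n = 3 each), a difference of -0.83 (SE 0.13, 95% interval -1.12 to -0.54, adjusted p = 0.00969), or 0.562 times the wild type level. The call was lost without null-labelled pool 2 (adjusted p = 0.0523), without wild type pool 2 (0.0507) and when every array row was tested in place of 1 row per gene (0.0941). The range over all settings was 0.0013 to 0.0941. Its promoter is printed for comparison with those of the subunits, and it holds none of the 3 motifs (RefSeq, GRCm38.p6, chr5:51567676-51567975, minus strand).
Ppargc1a: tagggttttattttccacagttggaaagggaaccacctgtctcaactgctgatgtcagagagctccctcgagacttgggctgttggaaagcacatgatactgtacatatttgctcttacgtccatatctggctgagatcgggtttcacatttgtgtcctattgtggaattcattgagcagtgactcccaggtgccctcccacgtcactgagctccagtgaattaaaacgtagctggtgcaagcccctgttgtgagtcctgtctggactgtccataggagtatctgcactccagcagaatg

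Some markers of the proximal tubule, loop of Henle and distal tubule passed the test. The mitochondrial content of these segments at E14.5 was not measured. Of 14 measured proximal tubule markers 9 fell, with a median difference of -0.92, and of 10 markers of the distal segments (loop of Henle, distal tubule) 5 fell, with a median of -0.81, against 0.767% of all genes that fell. The median level of the proximal tubule list was 6.40 to 6.66 in null-labelled pools and 6.91 to 7.29 in wild type pools. Its median deviations were -0.37, -0.47 and -0.42 in null-labelled pools 1, 2 and 3, against 0.72, 0.61 and 0.19 in wild type pools 1, 2 and 3. Wild type pool 3, highest of the 6 for most subunits, was the lowest wild type pool on this list. Of 8 endothelial markers 4 rose (median 0.46), and of 8 macrophage markers 4 rose (median 0.47), against 1.64% of all genes that rose. Of 7 measured neuron and glia markers 1, Elavl4, rose, and the median difference was 0.62, with deviations of -0.42, 0.69 and 0.59 in null-labelled pools 1, 2 and 3, against -0.57, -0.25 and -0.08 in wild type pools. Of 7 adrenal cortex markers 0 passed, with a median of 0.28, and null-labelled pool 3 stood apart, at -0.27, -0.61 and 1.03 in null-labelled pools, against -0.20, -0.21 and 0.14 in wild type pools. The 8 nephron progenitor markers had a median of -0.05, with 1 that fell and 1 that rose. The part of these cell types in the values of the subunits was not tested.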

How the data were processed

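The authors' deposited values are log2 expression levels, 1 per array row, per the values and the labels, with arrays of 6 pools (3 null, 3 wild type) grouped by the labels. No source used here names the summarisation program. The authors' deposited table of 488 rows holds natural log differences, to judge from a slope of 1.501 of the log2 differences on them, near 1 over ln 2 (1.443). It lists 0 of the rows used for the 82 members and gave no value here. Their further rows and rows with several symbols were not looked up in it. Levels were not normalised again, since pool medians ran from 6.984 to 7.057. The value table's 35556 rows were joined to GEO's platform annotation. Of these, 21789 carried 1 symbol, 1621 several and 12146 none. Of the rows with 1 symbol, 21698 were found in RefSeq by gene ID, and 0 symbols needed updating. Rows with 1 symbol were kept, and per gene the row with the highest mean over the 6 pools, which left 19938 genes.

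Differences are null minus wild type from lmFit and eBayes in limma 3.58.1 (R 4.3.3) over all genes, two-sided, with Benjamini-Hochberg adjustment and a threshold of 0.05. Tables were made with pandas 2.3.3 and numpy 2.4.6 under Python 3.11.15, and figures with matplotlib 3.10.9. Tested on simulated data of 19938 genes, the fit recovered 99 of 100 genes changed by 2-fold and 85 of 100 changed by 1.5-fold, with 9 false calls. The simulated noise was independent between genes, unlike deviations that genes share within a pool. No change under 1.5-fold was simulated, so recovery of shifts as small as those of most members was not measured. Precision is limited by having 3 arrays per genotype, with a median SE of 0.081 for members and 0.086 for all genes. A permutation of 3 against 3 pools cannot give a two-sided p below 0.1, so none was used for single genes. Because pools share litters, p-values measure the spread between these pools.

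Alternatives were a filter on low rows, all rows tested, median centring, quantile normalization, a trended robust variance, array weights, a block on the replicate number, accepted subunits only, and leaving out each pool. The genes named are, in each complex, those with the highest and lowest differences, that with the highest level, and the isoform pairs. In other lists the rule named genes past the threshold with the largest differences, or, where none passed, those with the highest level. Further subunits, and genes of other lists such as Slc25a5 and Pdk2, were named after their values were seen. Members and lists were chosen with earlier results of these data known.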

Additional observations from a re-analysis of the deposited data

How the results depend on the processing

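As reported, 0 members passed the threshold. The count was 1 with the filter on low rows, which leaves 6 members out, 1 with array weights and 3 with the trended robust variance, and 0 to 1 with a pool left out. The replicate block gave 0. Same-numbered pools correlated at 0.125, 0.068 and 0.053, each best with its own number, but not all over 0.1, so the numbers were not taken as pairs. Calls over all genes numbered 539 with the block, 90 with all rows tested, 552 with the filter and 194 to 743 with a pool left out, against 479. The members' median lay between -0.15 and -0.088 with a pool left out. The complex medians were then -0.17 to -0.093 for I, -0.092 to -0.037 for II, -0.21 to -0.14 for III, -0.11 to -0.081 for IV and -0.18 to -0.093 for V. For I, II, III and V the value nearest 0 was that without wild type pool 3. Median centring gave -0.11 for II and -0.13 for IV, and moved the median of all genes to -0.023. Signs turned in genes near 0 that passed no test. With a pool left out, differences ran from -0.068 to 0.029 for Atp5c1, -0.084 to 0.035 for Atpaf1, -0.086 to 0.060 for COX2, -0.13 to 0.010 for Cox6a2, -0.084 to 0.0066 for Cox7a1, -0.061 to 0.10 for Lrpprc, -0.0001 to 0.11 for Ndufs1, -0.023 to 0.059 for Ndufv3, -0.055 to 0.11 for Sdha, -0.041 to 0.032 for Sdhaf2, -0.12 to 0.005 for Sdhb and -0.14 to 0.0019 for Uqcrc2. Quantile normalization gave 0.022 for COX2, and median centring gave -0.021 for Ndufv3, -0.0076 for Rps4x and -0.005 for Rps6. The cause of these changes was not tested.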
